A study of Glycine max with 10 samples.

Results

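The stretch of soybean chromosome 7 around Rag1 was taken as every gene model with an identifier from Glyma.07G055000 to Glyma.07G075000, in identifier order, with a level over 0.5 CPM (read counts scaled to library totals of equal size) in 1 library or more. Of 201 identifiers in this window, 144 (71.6%) met the rule, out of 37468 retained genes of 55983 in the whole table (66.9%). Of the 57 that did not, 17 had no count in any library and 40 had a count below the threshold. The members nearest above the threshold were Glyma.07G058800 and Glyma.07G060600, whose highest unscaled levels were 0.513 and 0.544 CPM. Nearest below it were Glyma.07G071000 and Glyma.07G068000, with 0.463 and 0.427 CPM. The threshold was passed in all 10 libraries by 119 members and in only 1 library by 3 members. No difference between conditions was used in the rule, but a gene at a low level could pass through its highest libraries alone.

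Rag1 is a dominant locus for resistance to soybean aphid, an insect that feeds on phloem sap. Biotype 1 of the aphid is avirulent on plants with Rag1, whereas biotype 2 is virulent on them. Resistance loci of this kind in plants commonly hold clusters of nucleotide-binding leucine-rich repeat receptors, proteins inside the cell that recognise products of an attacker and start a defence response. The table pairs its identifiers with no gene names, and 0 identifiers were found in the reference gene list. The members are therefore given by identifier, without roles, and which of them is Rag1 is not stated.

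Leaf RNA came from greenhouse plants of a resistant soybean with Rag1 (LD12-15813Ra) and of a susceptible one (LD12-15838R in the labels, spelled differently in the paper). Some plants first received 50 biotype 2 aphids as an inducer, with 15 biotype 1 aphids as the response population (here called inducer). Others received 15 biotype 1 aphids alone, or no aphids (control). Inducer and control leaves were taken at day 11 and day 1, and leaves with biotype 1 alone at day 11 only, for each cultivar. This gave 10 libraries, 1 per condition, each made from 3 replicates pooled before sequencing. No condition therefore had a library of its own to compare with, and all tests took their error from the residuals of 1 model over the 10 libraries, with 4 residual degrees of freedom.

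Totals lay between 23394065 and 25665558 counts per library, with a median of 24157336. Scaling factors by the trimmed mean of M-values (TMM) lay between 0.772 in resistant control day 1 and 1.15 in resistant inducer day 1, and all CPM below are on TMM-scaled totals. A count of 3, taken as the limit of detection, was 0.104 to 0.158 CPM and covers counting error only. The median SD of log2(CPM + 0.5) over the 10 libraries was 0.38 for the window and 0.37 for all genes. It was 0.38 and 0.39 for the flanks, the 200 identifiers below the window (154 retained) and the 200 above it (153 retained). Because the table holds no names, neither the leaf label nor the cultivar labels could be checked against marker genes. Every cultivar, day and product value below rests on the labels as deposited, and a member of the window described next parts the libraries in a way that no label does. Whether each label belongs to its library was not tested. Across all genes the cultivar label moved few values (1.64% at an unadjusted p under 0.05) and the product of day and cultivar many (23.3%). The product sets the resistant day 11 and susceptible day 1 libraries over the susceptible day 11 and resistant day 1 libraries, 5 on each side.

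The most variable member was Glyma.07G063700, with an SD of 2.07 on the log2(CPM + 0.5) scale. It was singled out after its values had been seen. Among resistant libraries it had 8.88 CPM with the inducer at day 11, 0 with biotype 1 alone at day 11 and 8.04 in the control at day 11. At day 1 it had 5.11 CPM in the resistant inducer library and 0 in the resistant control. Among susceptible libraries it had 0 with the inducer, 5.59 CPM with biotype 1 alone and 0 in the control at day 11, and 8.17 CPM with the inducer and 0 in the control at day 1. Thus 5 libraries held no count of this gene and 5 held 140 to 257 counts, with nothing in between. The lowest of the 5 libraries with counts was at least 32.3-fold higher than the limit of 3 counts in the least sensitive library (0.158 CPM).

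These libraries parted by none of the labels. Counts were present in 3 of 5 resistant and 2 of 5 susceptible libraries. They were present in 3 of 4 inducer libraries, 1 of 2 libraries with biotype 1 alone and 1 of 4 controls. The product of day and cultivar did not part them either, since its sides held 3 and 2 of the 5 libraries with counts. With edgeR's quasi-likelihood test, the product had an adjusted p of 0.572 for this gene and the inducer against control one of 0.808.

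**Figure D1:**
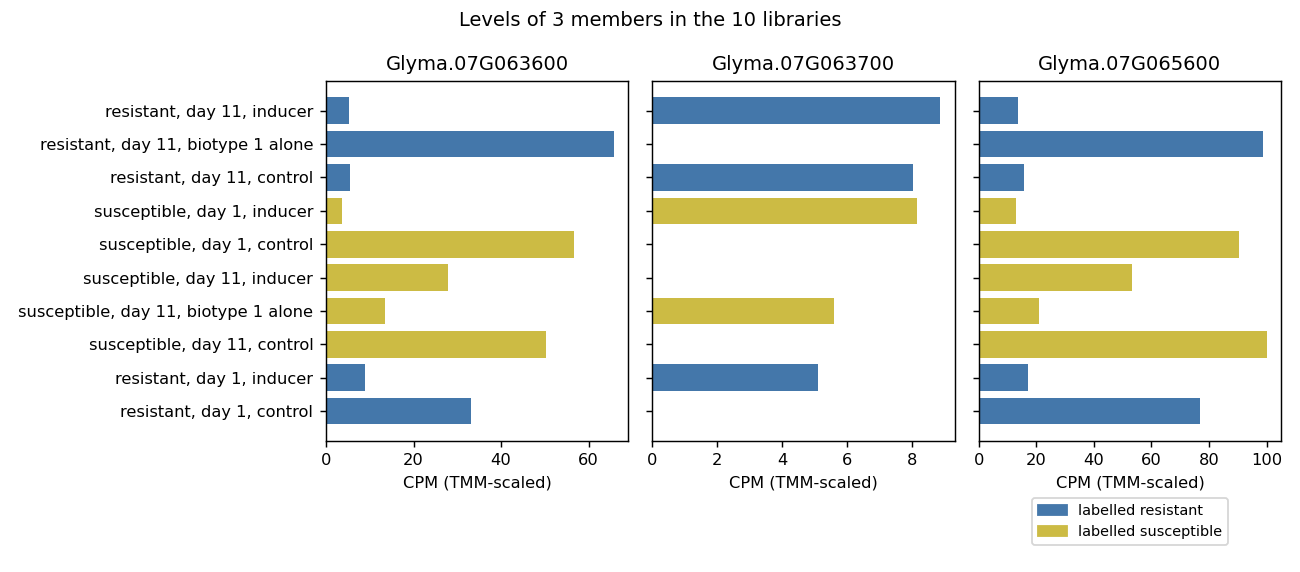
Levels of Glyma.07G063600, Glyma.07G063700 and Glyma.07G065600 (horizontal axes, CPM on TMM-scaled totals, each from 0) in the 10 libraries (rows), coloured by cultivar label; each bar is 1 library made from 3 pooled replicates, so there is no error bar. Glyma.07G063700 is at 0 in exactly the 5 libraries in which the other 2 genes are highest.

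A pair of nearby members had the opposite pattern. Glyma.07G063600 had 5.25 CPM in resistant inducer day 11, 5.51 in resistant control day 11, 8.90 in resistant inducer day 1, 13.6 in susceptible biotype 1 day 11 and 3.67 in susceptible inducer day 1. It had 65.8 CPM in resistant biotype 1 day 11, 33.1 in resistant control day 1, 27.8 in susceptible inducer day 11, 50.3 in susceptible control day 11 and 56.6 in susceptible control day 1. The second set is exactly the 5 libraries without Glyma.07G063700, and all of it lay above the first.

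Glyma.07G065600 divided the libraries in the same way. Where Glyma.07G063700 was present it had 13.5 CPM in resistant inducer day 11, 15.8 in resistant control day 11, 17.2 in resistant inducer day 1, 20.9 in susceptible biotype 1 day 11 and 12.9 in susceptible inducer day 1. Where it was at 0, Glyma.07G065600 had 98.9 CPM in resistant biotype 1 day 11, 76.8 in resistant control day 1, 53.3 in susceptible inducer day 11, 100.1 in susceptible control day 11 and 90.3 in susceptible control day 1. In each of these 3 genes a library lay on the low or the high side with a gap of at least 2-fold between the sides, on the CPM + 0.5 scale. The gaps were 2.01-fold in Glyma.07G063600, 11.2-fold in Glyma.07G063700 and 2.51-fold in Glyma.07G065600.

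Over all 37468 genes, the 2 with the levels most like Glyma.07G063700 in absolute Pearson r of log2(CPM + 0.5) were these neighbours, with r = -0.98 for Glyma.07G065600 and r = -0.95 for Glyma.07G063600 (n = 10 libraries, each point a pool of 3 replicates, given as a description). Within the window they were followed by Glyma.07G072600 (r = 0.91, mean 0.34 CPM) and Glyma.07G065500 (r = 0.90, mean 1.49 CPM). Next were Glyma.07G063000 (r = -0.90, mean 0.399 CPM) and Glyma.07G072900 (r = 0.88, mean 30.8 CPM). Genes on other chromosomes had values of r of this size too, the highest being Glyma.13G198000 with r = 0.95.

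The same 5 highest and 5 lowest libraries, in either direction, were found in 11 of 144 members (7.64%), against 136 genes (0.364%) of 37352 whose 5 highest and 5 lowest libraries could be told apart. This count describes a division read from the members' own values, with no test. The 11 members were Glyma.07G058100, Glyma.07G059000, Glyma.07G059800, Glyma.07G063000, Glyma.07G063600, Glyma.07G063700, Glyma.07G065500, Glyma.07G065600, Glyma.07G068700, Glyma.07G072600 and Glyma.07G072900. They were spread from Glyma.07G058100 to Glyma.07G072900, with 3 of 12 members in the stretch Glyma.07G063000 to Glyma.07G064900 and 2 of 13 in the next. Neither flank held a gene with it (0 of 154 below and 0 of 153 above), and the rest of the chromosome held 6 genes. Chromosome 13 had the next highest count, with 13 genes.

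The sides lay furthest apart in 3 members. Of the genes with this division, a gap of at least 2-fold was found in 3, and all 3 were members. A gap of at least 1.2-fold was found in 8 members and in 9 genes elsewhere, the largest elsewhere being 1.8-fold. The 8 members include Glyma.07G063700 itself. Glyma.07G063000, Glyma.07G063700 and Glyma.07G072600 passed the rule of 0.5 CPM only in libraries of their higher side. Their division therefore follows in part from that rule. Of the 9 genes elsewhere, 5 were on chromosome 13, and 4 of these lay close together by identifier (Glyma.13G032800, Glyma.13G032900, Glyma.13G033300 and Glyma.13G033800, with gaps of 1.76-fold, 1.8-fold, 1.3-fold and 1.74-fold). On chromosome 7 outside the window the largest gap was 1.11-fold. Among the members with smaller gaps, Glyma.07G065500 had 2.18, 2.01, 2.66, 3.85 and 1.62 CPM where Glyma.07G063700 was present and 0.316 to 0.684 CPM where it was at 0. Glyma.07G059800 ran the other way, with 16.3 to 33.7 CPM where Glyma.07G063700 was present and 49.1 to 54.3 CPM where it was at 0.

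**Figure D2:**
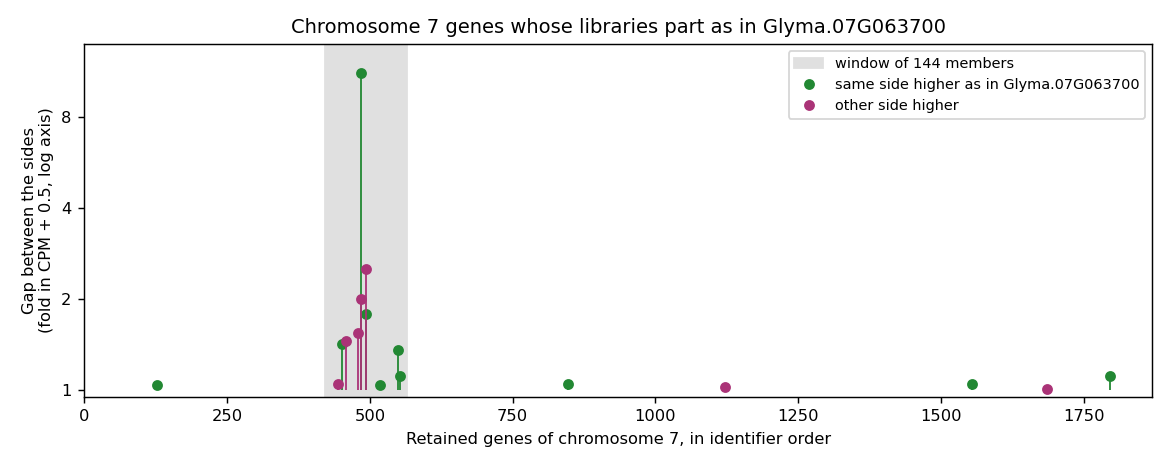
The 17 genes of chromosome 7 whose 5 highest and 5 lowest libraries are those of Glyma.07G063700, in either direction; the horizontal axis is the order of retained genes by identifier, the vertical log axis the gap between the sides as a fold of CPM + 0.5, and grey marks the window of 144 members. The 11 members in the window include every gap above 1.11-fold on the chromosome.

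How reads of near-identical gene copies were shared out was not examined, so part of a level in 1 of these members may belong to a related copy. Resistant control day 1, the library with the lowest scaling factor, held no count of Glyma.07G063700. Without it the division was found in 12 members (0.526% of all genes). Over each library left out in turn it was found in 11 to 18, against 0.526% to 1.79% of all genes. The largest share of all genes was without resistant control day 11, with 15 members. The highest counts were 18 without resistant biotype 1 day 11 (1.64% of all genes) and 17 without susceptible biotype 1 day 11 (0.552%).

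A different division recurred in other members with wide gaps. Of all members, 8 had their libraries parted by at least 2-fold with at least 3 libraries on each side, against 3.88% of all genes (1455). Besides the 3 described above, these were Glyma.07G055800, Glyma.07G057100, Glyma.07G067800, Glyma.07G073800 and Glyma.07G074400. All 5 set the 3 susceptible day 11 libraries and resistant inducer day 1 against the other 6 libraries, a division that 719 genes of the whole table had with such a gap. This is the product of day and cultivar with resistant control day 1 on the other side.

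**Figure D3:**
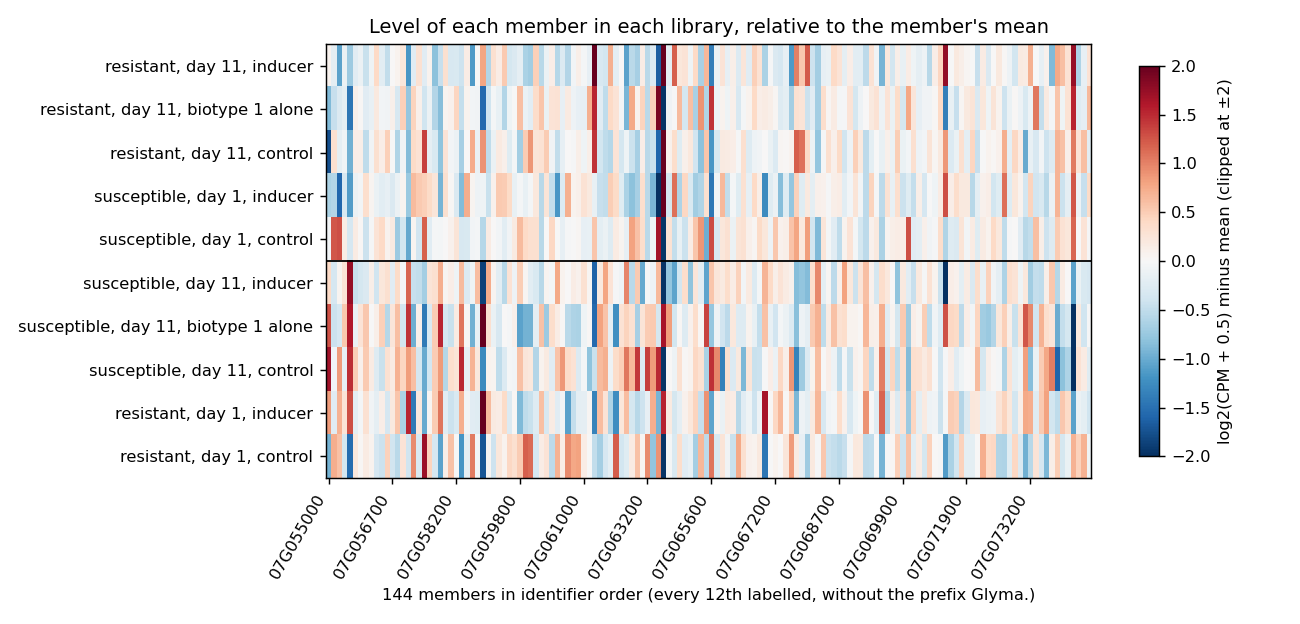
Level of each of the 144 members (columns, in identifier order) in each library (rows), as log2(CPM + 0.5) minus the member's mean over the 10 libraries, with colours clipped at 2 in either direction; the black line parts the resistant day 11 and susceptible day 1 libraries, above, from the susceptible day 11 and resistant day 1 libraries. Most columns are pale, and the darkest column is Glyma.07G063700, whose libraries do not part at the line.

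The question of whether the cultivars differed in their change from day to day was asked with the product of day and cultivar. By edgeR, 1 of 144 members passed an adjusted p of 0.05, against 300 genes (0.801%) of the whole table. That member was Glyma.07G068300. It had 10.2, 10.2 and 9.53 CPM in the resistant inducer, biotype 1 and control libraries of day 11 and 18.0 and 8.85 CPM in the susceptible inducer and control libraries of day 1. It had 32.9, 27.3 and 25.7 CPM in the susceptible inducer, biotype 1 and control libraries of day 11 and 26.8 and 16.3 CPM in the resistant inducer and control libraries of day 1. The sides overlapped only in susceptible inducer day 1 and resistant control day 1.

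The fitted difference of Glyma.07G068300 was -1.11 on the log2 scale (SE 0.17, edgeR adjusted p = 0.0421), and the interaction term is 2 times this value. Its log2(CPM + 0.5) at day 11 minus day 1 was -1.36 with the inducer and -0.74 in the control of the resistant cultivar. In the susceptible cultivar the same differences were 0.85 and 1.49. The call was lost with plain library totals (edgeR adjusted p = 0.0643) and without any library other than resistant control day 1 (edgeR adjusted p = 0.0835 to 0.172).

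At an unadjusted p under 0.05, edgeR found 33 members (22.9%), 13 higher and 20 lower in the resistant day 11 and susceptible day 1 libraries, against 23.3% of all genes. Without 1 library the number was 18 to 32 (14.1% to 22.9% of all genes), except without resistant control day 1, where it was 49 (38.3% of all genes). The flanks had 35 of 154 (22.7%) and 39 of 153 (25.5%). The median product difference was -0.05 on the log2 scale in the window and 0.00 in all genes. In their share, then, the members lay at the level of the whole table. DESeq2 called 17 members (11.8%) at an adjusted p of 0.05, against 11.7% of all genes. Without resistant control day 1, edgeR called 29 members (20.1%), 10 higher and 19 lower, against 21.7% of all genes.

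**Figure D4:**
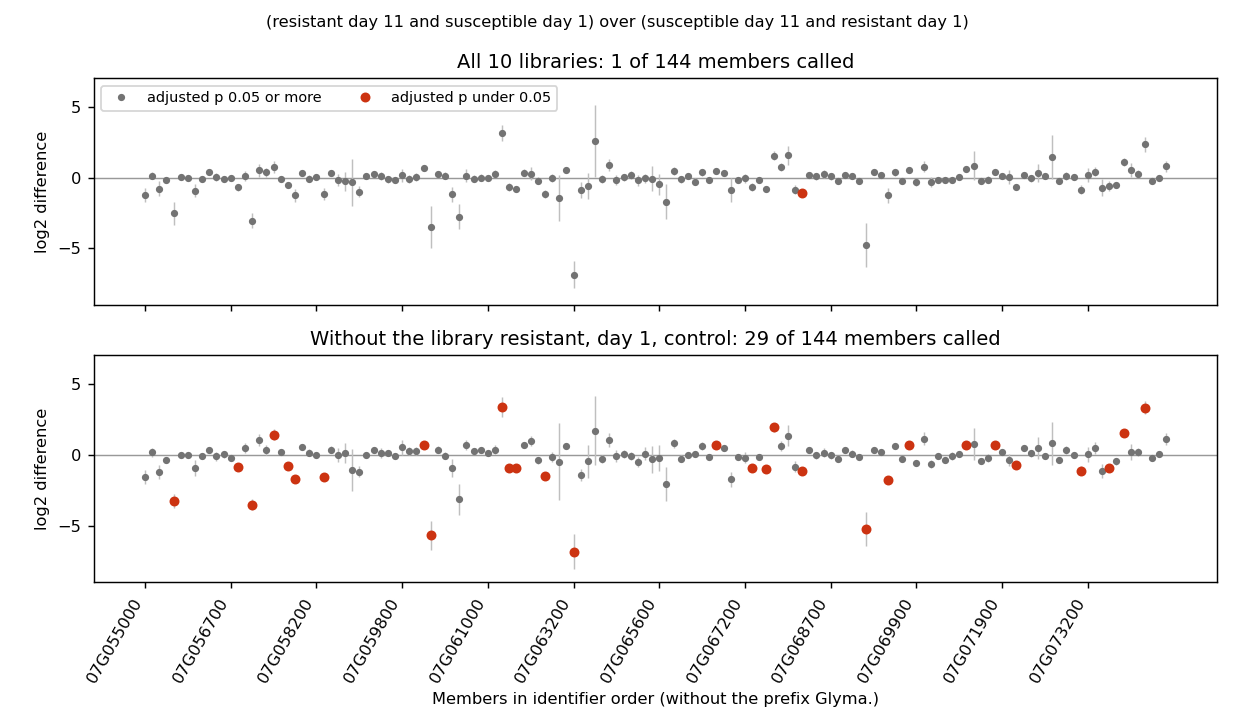
Product of day and cultivar for the 144 members in identifier order (horizontal axis), as the log2 difference of the resistant day 11 and susceptible day 1 libraries over the susceptible day 11 and resistant day 1 libraries (vertical axis), with bars of 1 SE; red points passed an adjusted p of 0.05 in edgeR. With all 10 libraries 1 member passes, and without resistant control day 1 there are 29, spread over the whole window in both directions. The lowest point is Glyma.07G063200, which has no count on 1 side, so its height is not a measured fold.

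The libraries did not overlap by the product in 11 members (7.64%), 6 higher and 5 lower, against 8.39% of all genes. The flanks had 13 (8.44%) and 18 (11.8%). Without resistant control day 1, 33 members (22.9%) did not overlap, 12 higher and 21 lower, against 29.5% of all genes. Non-overlapping members were found in 7 of the 10 stretches of 20 identifiers, at most 2 in each. Glyma.07G057100, Glyma.07G060600 and Glyma.07G063200 passed the rule of 0.5 CPM only in libraries of their higher side. Their separation therefore follows in part from that rule.

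Among the higher ones, Glyma.07G074400 had the largest SD of log2(CPM + 0.5), 1.71. It had 42.0, 36.2 and 25.5 CPM in the resistant inducer, biotype 1 and control libraries of day 11 and 29.5 and 28.1 CPM in susceptible inducer and control day 1. It had 5.56, 2.27 and 1.01 CPM in the susceptible day 11 libraries in the same order, and 5.58 and 20 CPM in resistant inducer and control day 1. Resistant control day 1 thus lay close to the higher side. Its fitted difference was 2.35 (SE 0.54, edgeR adjusted p = 0.0885) and, without that library, 3.30 (SE 0.46). Leaving out the library nearest the other side favours a larger difference, so the second value is a description only.

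Glyma.07G073800 had 56.1 to 67.1 CPM in the resistant day 11 and susceptible day 1 libraries. In the susceptible day 11 libraries it had 26.4, 19.5 and 12.6 CPM with the inducer, with biotype 1 alone and in the control, and at day 1 it had 27.5 CPM in resistant inducer and 55.5 CPM in resistant control leaves. The last value lay just below the lowest of the other side. Glyma.07G067800 had 4.92 to 9.57 CPM on the higher side and 1.94, 1.96 and 1.24 CPM in the susceptible day 11 libraries, with 1.86 and 4.48 CPM in resistant inducer and control day 1. Their fitted differences were 1.10 (SE 0.29) and 1.56 (SE 0.32). Both were called by DESeq2, not by edgeR with all libraries (adjusted p = 0.105 and 0.0799). EdgeR without resistant control day 1 called both too, but leaving out the library nearest the higher side favours such a call.

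A pair of members had narrow but separate ranges. Glyma.07G060100 had 6.29 to 7.60 CPM in the resistant day 11 and susceptible day 1 libraries and 3.41 to 4.68 CPM in the others. Glyma.07G071100 had 19.4 to 23.6 CPM and 12.7 to 17.0 CPM in the same order. Their fitted differences of 0.70 (SE 0.16) and 0.61 (SE 0.14) had edgeR adjusted p-values of 0.0873 and 0.0887. Glyma.07G061500, at a low level, had 7.08, 4.73 and 4.42 CPM in the resistant day 11 libraries and 1.14 and 2.15 CPM in the susceptible day 1 libraries, against 0.0904 to 0.830 CPM in the others.

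On the lower side, Glyma.07G072100 was the only non-overlapping member with a mean of at least 5 CPM on its higher side. It had 8.67 to 10.5 CPM in the resistant day 11 and susceptible day 1 libraries, and 12.2 to 19.0 CPM in the others (fitted difference -0.63, SE 0.14, edgeR adjusted p = 0.0837). Glyma.07G057100 had 0.138 to 0.350 CPM in the resistant day 11 and susceptible day 1 libraries. It had 2.67, 3.36 and 2.03 CPM in the susceptible inducer, biotype 1 and control libraries of day 11, and 3.61 and 0.579 CPM in resistant inducer and control day 1. Glyma.07G055800 looked alike, with 0.146 to 0.893 CPM in the resistant day 11 and susceptible day 1 libraries and 3.76 to 5.38 CPM in the others except resistant control day 1, where it had 0.105 CPM.

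The other 3 lower members were at low levels. Glyma.07G063200 had no count in any resistant day 11 or susceptible day 1 library and 0.146 to 1.38 CPM (4 to 30 counts) in the others. No fold is given, since 1 side held no count. Glyma.07G068200 had 0.415 to 0.643 CPM and 0.784 to 1.25 CPM in the same order, and Glyma.07G060600 passed 0.158 CPM in susceptible control day 11 only, at 0.599 CPM.

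Resistant control day 1 was the highest library in 24 members (16.7%, against 15.8% of all genes) and the lowest in 22 (15.3%, against 16.9%). It lay farthest outside the other 9 libraries in Glyma.07G062400, Glyma.07G059900 and Glyma.07G060900. Glyma.07G062400 had 64.6 CPM there and 11.5 to 36.5 CPM in the others, a gap of 1.76-fold. The gaps of Glyma.07G059900 and Glyma.07G060900 were 1.61-fold and 1.6-fold.

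Whether genes around Rag1 differed between the cultivars was asked of the resistant over the susceptible libraries. No member was called by edgeR or by DESeq2. At an unadjusted p under 0.05, edgeR found 6 members (4 higher and 2 lower in the resistant cultivar; 4.17%), against 1.64% of all genes, and DESeq2 found 3 (2.08%), against 2.11% of all genes. The libraries of the cultivars did not overlap in 0 members, against 0.165% of all genes, with 0 in each flank. The median difference was 0.00 in the window and in all genes. Without resistant control day 1, 2 members did not overlap (1.39%), against 0.683% of all genes, and without resistant inducer day 1, 1 did not, against 2.74% of all genes. Leaving out resistant inducer day 1 also gave 22 members (15.3%) with an unadjusted p under 0.05 in edgeR, against 16.6% of all genes, while susceptible control day 11 or resistant inducer day 11 left out gave 1, against 1.16% and 0.803% of all genes.

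Glyma.07G074800 had the lowest p among the higher members at 5 CPM or more, with a log2 difference of 0.31 (SE 0.13). It had 11.3 to 21.3 CPM in the resistant libraries and 9.31 to 15.8 CPM in the susceptible libraries, and the ranges overlapped. Glyma.07G062200, on the lower side, had 4.22 to 7.62 CPM in the resistant libraries and 4.28 to 11.2 CPM in the susceptible libraries (log2 difference -0.47, SE 0.19). For both, the edgeR adjusted p was 1, and so it was for Glyma.07G074400 (1.26, SE 0.53) and Glyma.07G068300 (-0.40, SE 0.17). The product differences of the last 2 are given above.

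For day 11 over day 1, neither edgeR nor DESeq2 called a member. No member had an unadjusted p under 0.05 by either tool, against 1.01% of all genes in edgeR. The days did not overlap in 0 members, against 0.179% of all genes. The median difference was 0.01 on the log2 scale in the window and -0.02 in all genes. Without resistant inducer day 1, 17 members (11.8%) had an unadjusted p under 0.05 in edgeR, against 12.7% of all genes. Without any other library 0 to 4 members did, against 0.622% to 2.45% of all genes. Without resistant inducer day 11, 1 member did not overlap, against 0.387% of all genes.

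Among members at 5 CPM or more that were higher at day 11, Glyma.07G062200 (0.32, SE 0.20) and Glyma.07G056900 (0.37, SE 0.25) had the lowest p. In both, only the susceptible libraries were higher at day 11, and the resistant ones were lower, with the inducer and in the control. Among those lower at day 11, Glyma.07G069800 (-0.39, SE 0.19) and Glyma.07G059400 (-0.32, SE 0.17) had the lowest p. All 4 had an edgeR adjusted p of 1, and other members had larger differences. In Glyma.07G069800 the susceptible libraries were lower at day 11 with the inducer and in the control. The resistant library was higher at day 11 with the inducer and nearly level in the control. It had 9.85, 11.8 and 13.0 CPM in the resistant day 11 libraries and 7.40 and 12.8 CPM at day 1, against 4.97, 7.02 and 6.22 CPM in the susceptible day 11 libraries and 11.6 and 10.1 CPM at day 1.

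The effect of the aphids was asked in 3 contrasts, which share libraries. Biotype 1 alone was sampled at day 11 only. Its differences, where fitted over all libraries, therefore assume equal treatment effects at both days. For the inducer over control, edgeR called no member and no gene of the table. At an unadjusted p under 0.05 it found 11 members, 2 higher and 9 lower with the inducer (7.64%), against 7.61% of all genes. DESeq2 called 2 members, both lower with the inducer, against 0.352% of all genes. These were Glyma.07G074800 (DESeq2 adjusted p = 0.0272) and Glyma.07G067500 (DESeq2 adjusted p = 0.0465). In edgeR both had an adjusted p of 0.648. The number at an unadjusted p under 0.05 was 7 to 20 with 1 library left out, at its lowest without resistant inducer day 11 (3.46% of all genes), 17 without the susceptible or the resistant biotype 1 library (5.88% and 5.86% of all genes) and 20 without susceptible inducer day 11 (8.16% of all genes).

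Glyma.07G074800 had 11.5 and 11.3 CPM in the resistant inducer libraries of day 11 and day 1 and 10.4 and 9.31 CPM in the susceptible ones. With biotype 1 alone it had 11.4 CPM in the resistant and 9.70 CPM in the susceptible cultivar, and in the controls 19.9 and 21.3 CPM (resistant, day 11 and day 1) and 14.6 and 15.8 CPM (susceptible). All 6 libraries with aphids lay below all 4 controls. The log2 difference from control was -0.74 (SE 0.14) with the inducer and -0.75 (SE 0.19) with biotype 1 alone.

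Glyma.07G067500 overlapped between treatments, but its inducer library was below the control in each pair of 1 cultivar and day. It had 7.50 and 23.2 CPM in the resistant inducer libraries of day 11 and day 1, against 17.9 and 31.3 CPM in their controls. It had 18.1 and 9.79 CPM in the susceptible inducer libraries of day 11 and day 1, against 31.9 and 25.5 CPM in their controls. With biotype 1 alone it had 10.5 CPM in the resistant and 14 CPM in the susceptible cultivar. Its log2 difference from control was -0.96 (SE 0.21) with the inducer and -0.93 (SE 0.29) with biotype 1 alone.

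On the higher side, Glyma.07G069300 had 14.2 and 11.5 CPM in the resistant inducer libraries of day 11 and day 1, against 9.97 and 7.95 CPM in their controls. It had 12.2 and 15.8 CPM in the susceptible inducer libraries, against 7.98 and 12.3 CPM. With biotype 1 alone it had 13.2 CPM in the resistant and 12.6 CPM in the susceptible cultivar. The log2 difference was 0.50 against control in both contrasts (SE 0.14 with the inducer, 0.18 with biotype 1 alone), and neither passed (edgeR adjusted p = 0.648 and 0.963). Glyma.07G068300 had an inducer difference of 0.55 (SE 0.18, edgeR adjusted p = 0.648).

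**Figure D5:**
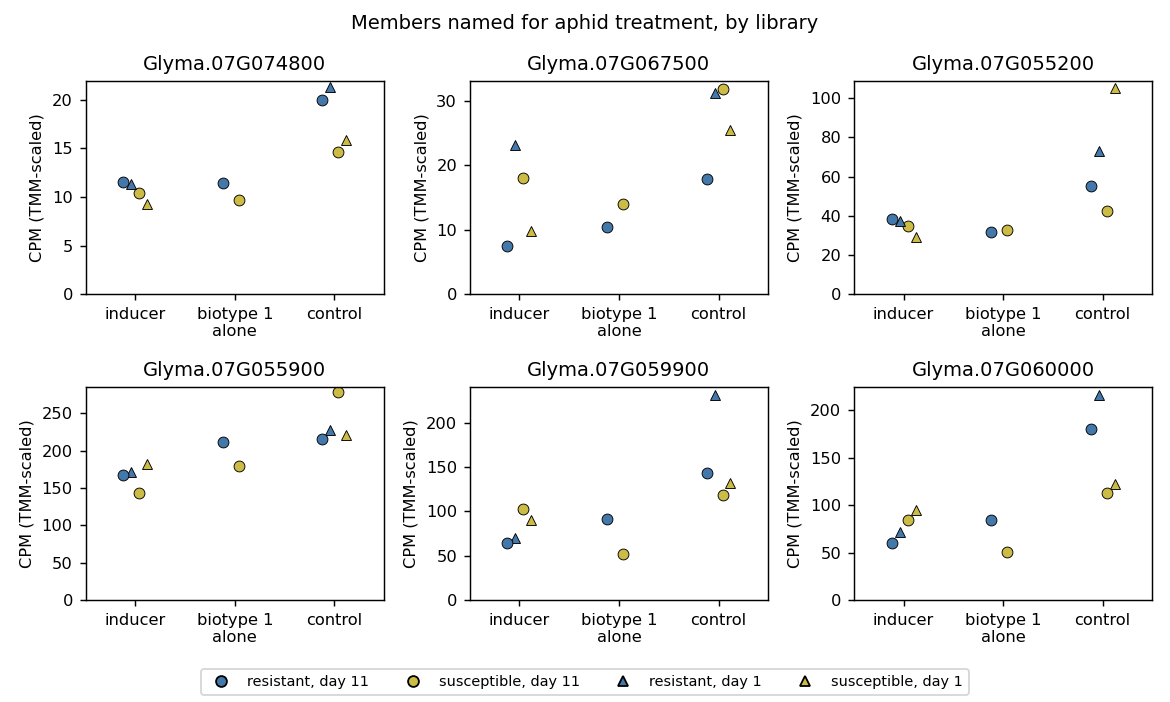
Levels (vertical axes, CPM on TMM-scaled totals, from 0) of 6 members by treatment (horizontal axes: inducer, biotype 1 alone, control); each point is 1 library made from 3 pooled replicates, with colour for cultivar and shape for day. In 5 of the 6, all but Glyma.07G067500, every library with aphids lies below every control.

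The 6 libraries with aphids did not overlap the 4 controls in 5 members, all lower with aphids, against 3.44% of all genes (474 higher and 816 lower). The count was 12 without susceptible control day 11 (9.89% of all genes) and 9 without resistant control day 11 (4.53% of all genes). It was 8 without susceptible control day 1 (5.85% of all genes) or susceptible inducer day 11 (5.26% of all genes). Besides Glyma.07G074800 these were Glyma.07G055200, Glyma.07G055900, Glyma.07G059900 and Glyma.07G060000. Glyma.07G055200 had 29.1 to 38.4 CPM with aphids and 42.2 to 105 CPM in the controls. Glyma.07G055900 had 144 to 211 CPM with aphids and 216 to 278 CPM in the controls.

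Glyma.07G059900 and Glyma.07G060000 follow each other by identifier. Glyma.07G059900 had 51.7 to 103 CPM with aphids and 119 to 231 CPM in the controls. Glyma.07G060000 had 50.4 to 94.7 CPM with aphids and 113 to 216 CPM in the controls. In both, resistant control day 1 was the highest library and susceptible biotype 1 day 11 the lowest. Whether reads were shared between them was not tested. No inducer difference of these 4 passed in edgeR (adjusted p = 0.648 to 0.660) or in DESeq2 (adjusted p = 0.127 to 0.275).

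Within the 4 pairs of 1 cultivar and day, 0 members were at least 1.5-fold higher with the inducer in all pairs, against 0.109% of all genes, and 0 at least 1.5-fold lower, against 0.187%. By any fold, 7 were higher in all 4 pairs, against 8.16% of all genes, and 19 lower, against 7.7%. With plain library totals in place of TMM, 17 members were higher and 12 lower, against 9.11% and 5.47% of all genes, so the direction of this count turned with the scaling. Plain totals moved the median inducer difference of all genes to 0.16 on the log2 scale, against 0.02 with TMM. With the resistant or the susceptible pair of day 1 left out, 2 members were at least 1.5-fold lower in the remaining pairs, against 0.371% and 1.36% of all genes. With the resistant pair of day 11 left out, 1 was higher (0.248% of all genes) and 4 lower (0.339% of all genes). With the susceptible pair of day 11 left out, 3 were higher (0.36% of all genes) and 2 lower (1.76% of all genes).

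For biotype 1 alone over control, edgeR called no member and DESeq2 none. Unadjusted p-values under 0.05 were found for 5 members in edgeR, 1 higher and 4 lower (3.47%), against 4.08% of all genes, and for 11 members in DESeq2 (7.64%), against 4.61% of all genes. In edgeR the number was 15 without resistant biotype 1 day 11 (3.62% of all genes) and 1 without susceptible biotype 1 day 11 (0.683% of all genes). It was 8 without resistant control day 1 (5.09% of all genes) and 4 to 7 without any other (1.79% to 5.46% of all genes). With the day 11 libraries only, edgeR found 8 members (5.56%), against 4.79% of all genes. Besides the members named above, Glyma.07G063100 had a log2 difference of 0.48 (SE 0.26, edgeR adjusted p = 0.963). It had 26.3 CPM with biotype 1 alone against 21.1 CPM in the control of resistant day 11 leaves, and 23.1 against 15.7 CPM in susceptible day 11 leaves.

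For the inducer over biotype 1 alone, edgeR and DESeq2 again called 0 members. Unadjusted p-values under 0.05 were found for 4 members in edgeR, 1 higher and 3 lower (2.78%), against 0.683% of all genes, and for 8 in DESeq2 (5.56%), against 0.745% of all genes. In edgeR the number was 8 without susceptible biotype 1 day 11 (0.406% of all genes) and 2 to 6 without any other (0.4% to 2.94% of all genes). With the day 11 libraries only, edgeR found 4 members (2.78%), against 3.26% of all genes. In resistant day 11 leaves Glyma.07G062900 had 5.08 CPM with the inducer and 13.2 CPM with biotype 1 alone. In susceptible day 11 leaves it had 5.06 and 9.44 CPM. Its log2 difference fitted over both days was -1.26 (SE 0.41). Within day 11 the difference of log2(CPM + 0.5) was -1.30 in resistant and -0.84 in susceptible leaves. Glyma.07G063100 had 21.3 and 26.3 CPM in resistant and 9.27 and 23.1 CPM in susceptible day 11 leaves in the same order (-0.77, SE 0.26). Glyma.07G060300 (0.49, SE 0.30) and Glyma.07G072300 (0.45, SE 0.33) had the lowest p among the higher members at 5 CPM or more. Within day 11 their differences of log2(CPM + 0.5) were 0.02 and -0.20 in resistant leaves, and 0.79 and 1.21 in susceptible leaves. All 4 had an edgeR adjusted p of 1.

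The steadiest members at 5 CPM or more were Glyma.07G070900, Glyma.07G056300 and Glyma.07G056000. Glyma.07G070900 had 28.1 to 32.8 CPM over the 10 libraries (SD 0.07 on the log2 scale). Glyma.07G056300 had 12.2 to 15.3 CPM (SD 0.10) and Glyma.07G056000 had 13.9 to 21.6 CPM (SD 0.16). They lie in the same window as Glyma.07G063700, whose SD was 2.07. Of the outermost members, Glyma.07G055000 had a product difference of -1.22 (SE 0.50, edgeR adjusted p = 0.206), with 5.11 CPM in resistant control day 11 as its lowest and 60.4 CPM in susceptible control day 11 as its highest level. Glyma.07G075000 had 0.328 to 1.2 CPM and a product difference of 0.80 (SE 0.39, edgeR adjusted p = 0.269).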

How the data were processed

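RNA of 3 replicates per condition was pooled in equal amounts, and the libraries were made with a stranded mRNA kit and sequenced on an Illumina NextSeq 500. The authors trimmed reads with Trimmomatic 0.36, checked them with FastQC 0.11.3 and MultiQC 1.3, and quantified them with Salmon 0.9.1 against the primary transcripts of Gmax_275_Wm82.a2.v1. They deposited estimated counts per gene, not scaled for depth or length. How Salmon was set for strand and for bias correction was not given in the sources used. The estimated counts were rounded to whole numbers. Levels of different genes were not compared, since no gene lengths were used.

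The main test was edgeR 4.0.16 in R 4.3.3 (TMM, robust quasi-likelihood test, Benjamini-Hochberg over all 37468 genes, threshold 0.05) with the model cultivar + day + product + treatment, each of the first 3 terms coded as a difference between sides. The common biological coefficient of variation was 0.363. SE was the log2 difference divided by the square root of F. DESeq2 1.42.0, other scalings, filters and models, and each library left out in turn were alternatives. With 1 library per condition, p-values measure the spread of the residuals only, and the contrasts share libraries. The edgeR test was also run on simulated counts with 8-fold changes in 200 genes and 1 spread shared by all genes. It recovered 100% of the changed genes, with 6 to 15 false calls per contrast. Those counts held no library that stood apart, so the run does not measure error rates in these data. Figures were drawn with matplotlib 3.10.9.

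Members named in the text were those with the largest gap by product that did not overlap (up to 5 in each direction), the 2 with the lowest edgeR p in each direction of each other contrast, the 3 steadiest, the 3 in which resistant control day 1 lay farthest out (all with at least 5 CPM), any member called, and the first and last. Other members were named after their values were seen. The window, its members and the tests were chosen with earlier results of these data known. Identifiers follow the order of the annotation; positions were not used.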

Additional observations from a re-analysis of the deposited data

Results flagged for a closer look

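Glyma.07G068300 had a product difference of -1.11 on the log2 scale (SE 0.17, edgeR adjusted p = 0.0421), a test of whether the change from day to day differed between the cultivars. Its day 11 level was below its day 1 level in both resistant pairs (log2 difference -1.36 with the inducer and -0.74 in the control) and above it in both susceptible pairs (0.85 and 1.49). Only 1 library stood behind each of these values, and the call was lost in edgeR without any library other than resistant control day 1.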

How the results depend on the processing

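The counts of called members stayed at 0 for cultivar, day, biotype 1 alone over control and inducer over biotype 1 alone in all alternatives run. Of all genes, at most 0.04% were called in any of these. For the inducer over control the count stayed at 0 in all but DESeq2, which called 2 (0.352% of all genes). For the product, 1 member was called with all libraries (0.801% of all genes), 17 by DESeq2 (11.7%) and 3 with no filter on low counts (0.974%). With 1 library left out, the count was 29 without resistant control day 1 (21.7% of all genes). It was 0 without any other (0.187% to 0.691% of all genes). Non-overlapping members by product numbered 11 to 33 without 1 library (8.8% to 29.5% of all genes) and 0 with a gap of at least 2-fold. Without 1 library they numbered 0 to 2 by cultivar (0.246% to 2.74% of all genes) and 0 to 1 by day (0.251% to 2.26%). For aphids against control they numbered 5 to 12 without 1 library (3.77% to 9.89% of all genes). The count was 12 without susceptible control day 11, 9 without resistant control day 11, and 8 without susceptible control day 1 or susceptible inducer day 11. For aphids it was 0 with a gap of at least 2-fold. Members moved at least 1.5-fold by the inducer in all pairs numbered 2 to 5 without 1 library. Of all genes, 0.248% to 0.595% were then higher and 0.339% to 1.76% lower. By any fold, 26 members moved, against 8.16% of all genes higher and 7.7% lower. The division of Glyma.07G063700 was found in 11 to 18 members without 1 library (0.526% to 1.79% of all genes). It was found in 12 with plain totals (0.414% of all genes) and in 8 with a gap of at least 1.2-fold (0.0454%), alternatives chosen after seeing the data. For the named members, 557 alternative values were computed. Of these, 533 kept their side of the threshold, 14 newly passed it and 10 no longer did, and 0 changed sign while called. The 533 may include changes of sign where neither value was called and the smaller lay within 1 SE of 0. With 4 residual degrees of freedom and 1 library per condition, a member that was not called is not shown to be unchanged.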
